A study of Mus musculus with 3 samples.

Results

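Pooled RNA from macrophages given intralipid together with recombinant ANGPTL4 was compared, gene by gene, with pooled RNA from macrophages given intralipid alone. Every probe set that the platform annotation ties to 1 gene symbol was eligible. Where a gene had several, the probe set with the highest mean over the 3 arrays stood for it. This gave 19938 genes from 35556 probe sets. A gene entered the counts where the higher of both arrays reached the expression floor, which is the median of the 1-symbol probe sets on that array (a log2 value of 4.98 for intralipid and 4.99 for ANGPTL4), and 10004 genes did so. A gene is called 2-fold higher or lower where the 2 deposited log2 values lay at least 1 apart. In the counts of gene lists, higher and lower alone mean any difference, and identical means none. Of all 10004 genes past the floor, 4658 were higher in this sense, 2313 lower and 3033 identical, and list counts are to be read beside these.

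The cells were peritoneal macrophages of male Angptl4-/- mice of the C57Bl/6J strain, so both groups, and the PBS group printed beside them, lacked a functional Angptl4 gene by genotype. The mice had received thioglycollate (4%), which recruits macrophages to the peritoneum, 3 days before lavage. Adherent cells were kept for 2 days in culture. One group then received intralipid, a triglyceride emulsion, at 0.5 mM triglyceride for 6 h. A further group received the same intralipid after 1.5 h with 2.5 µg/mL mouse recombinant ANGPTL4, and the PBS group received neither. The sources used here do not give the age of the mice, any mock pre-incubation of the other cultures or any measurement of endotoxin in the protein. Effects of these on the Toll-like receptor, NF-kB and other genes below and effects of ANGPTL4 itself cannot be told apart. RNA of 3 samples was pooled for each of the 3 arrays. With 1 array per group there is no replicate check, no test was run, and all values describe these arrays only.

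ANGPTL4 is a secreted protein that inactivates lipoprotein lipase (LPL), the enzyme that frees fatty acids from the triglyceride of lipoproteins and emulsions outside the cell. Macrophages make LPL themselves, take up the released fatty acids and store them in lipid droplets. Fatty acids also induce ANGPTL4 through PPAR nuclear receptors, which closes a feedback loop that Angptl4-/- cells lack. The comparison asks how added ANGPTL4 changes the state of such cells under a triglyceride load.

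In outline, most genes of sterol synthesis past the floor were higher with ANGPTL4. The same held for most genes past it in innate immune sensing (Toll-like receptors and their adaptors, C-type lectins, NF-kB inhibitors, interferon response genes). Most genes for immediate early transcription factors and for phosphatases that end MAP kinase signalling were lower. So were most ATF4 and CHOP targets and replication-dependent histones. The 254 genes at least 2-fold higher made up 2.54% of the genes past the floor, and the 231 genes at least 2-fold lower made up 2.31%. At 4-fold the balance differed, with 24 genes higher (0.24%) and 61 lower (0.61%), and at 8-fold 4 were higher and 20 lower. Small differences leaned the other way. Of the 10004 genes, 4658 had a higher value with ANGPTL4, 2313 a lower one and 3033 (30.3%) the identical value on both arrays. Why so many values were identical was not tested. The median difference was 0.00 and the mean 0.07 on the log2 scale, and the central spread of the differences over genes corresponded to a robust SD of 0.23.

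**Figure D1:**
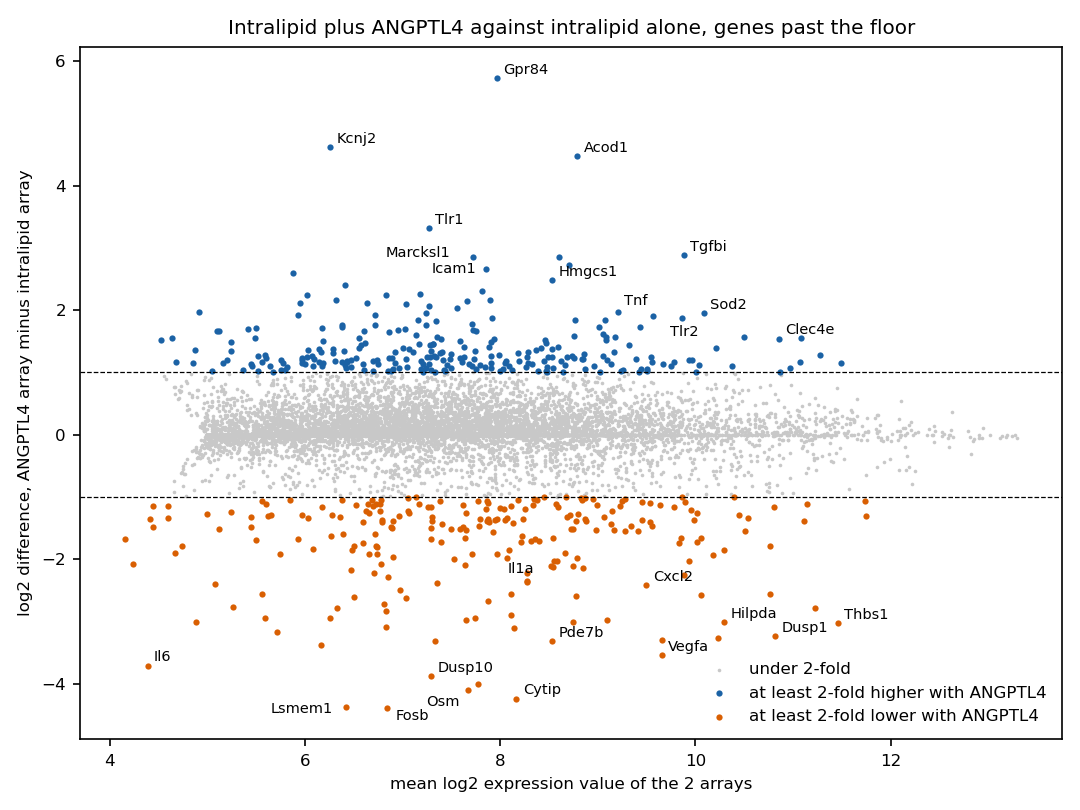
Each point is 1 of the 10004 genes past the floor, placed by the mean log2 expression value of both arrays (x axis) and by the log2 difference of the ANGPTL4 array minus the intralipid array (y axis). The dashed lines mark 2-fold, with the 254 higher genes in blue and the 231 lower genes in orange, and the points that lie farthest out are Gpr84 above and Fosb and Lsmem1 below.

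Genes 2-fold apart occurred at all levels. Among the 2307 genes with a mean log2 value below 6, 38 were higher and 30 lower. Among the 639 genes at 10 or above, 13 were higher and 22 lower. Of the 4558 genes that reached the 75th percentile on both arrays, 98 were higher and 103 lower, so called genes were also found well above background. Of the called genes, 26 of the higher lay below the floor with intralipid, and 29 of the lower lay below it with ANGPTL4. Where a ratio is printed for one of these, the ratio to the floor itself is given as well, which is the smaller value.

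The cultures carried the markers of macrophages. Here a marker counts as past the floor where it reached it on at least 1 of the 3 arrays, PBS included. Of 14 macrophage markers, 13 did so. The median log2 value of all 14 was 10.36 (PBS), 10.65 (intralipid) and 10.64 (ANGPTL4). Markers of resident peritoneal macrophages had 8 of 10 past the floor, among them Gata6 and Vsig4, and monocyte markers 1 of 3. The summed linear level of the resident list was 10.48 (PBS), 10.79 (intralipid) and 10.94 (ANGPTL4) as log2, with no marker 2-fold apart. No marker of T and NK cells (9 measured) or mast cells (7) passed the floor. Neutrophil markers had 3 of 10 past the floor (S100a8, Mmp8 and Mmp9), fibroblast markers 5 of 8 (with Col1a1, Col3a1 and Pdgfra), and mesothelial, B cell, eosinophil and dendritic cell markers 1 each. The summed linear level of the fibroblast list was 11.20, 11.19 and 11.18 as log2 on the arrays in the same order, and that of the neutrophil list 8.92, 8.86 and 8.99. The only markers 2-fold apart were Msr1, a scavenger receptor of macrophages, and Clec9a, a lectin of cross-presenting dendritic cells. Clec9a had a log2 value of 3.44 (PBS), 5.00 (intralipid) and 3.32 (ANGPTL4), 3.20-fold lower or 1.01-fold against the floor. In bulk samples, fewer cells of a type and less RNA per cell cannot be told apart.

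The targeted gene itself, Angptl4, had a log2 value of 4.92 on all 3 arrays. Lpl, the target of the added protein, had log2 values of 11.98 (PBS), 11.72 (intralipid) and 12.03 (ANGPTL4), a ratio of 1.24. The protein acts on the lipase after translation, and the arrays measured transcripts only.

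The genes that stood highest with ANGPTL4 included many of innate immune activation. Gpr84, a receptor for medium-chain fatty acids on myeloid cells, had a log2 value of 6.51 (PBS), 5.11 (intralipid) and 10.83 (ANGPTL4), a 52.7-fold difference between the latter pair. Acod1, the mitochondrial enzyme that makes itaconate from cis-aconitate, stood at 6.14, 6.55 and 11.03, or 22.2-fold higher with ANGPTL4. Both were far above the PBS array as well, by 19.9-fold for Gpr84 and 29.6-fold for Acod1. Kcnj2, an inward-rectifier potassium channel, behaved otherwise. Its log2 values were 8.48 (PBS), 3.96 (intralipid) and 8.57 (ANGPTL4) (24.5-fold, or 12-fold against the floor), so that only the intralipid array was low.

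These genes show the main profiles among the higher genes. Symbols of uncharacterised, non-coding or receptor-repertoire patterns, such as Gm and a number, were left out of the next count. In 54 of the remaining genes past the floor the ANGPTL4 array stood at least 2-fold above both other arrays, as in Acod1 and Gpr84. Of these, Marcksl1, an actin-binding substrate of protein kinase C, had log2 values of 6.63, 6.30 and 9.15, and Tarm1, an activating receptor of myeloid cells, 5.22, 4.91 and 7.15. Sod2, the manganese superoxide dismutase of mitochondria, had 9.27, 9.11 and 11.07, 3.89-fold higher than with intralipid alone. Tgfbi, a secreted matrix protein, had 9.54, 8.44 and 11.32 (7.37-fold higher). With the same symbol patterns left out, it was the largest upward difference among genes past the 75th percentile on both arrays. In others the PBS and ANGPTL4 arrays lay close together, as in Hhex, a homeobox transcription factor, with 7.73, 5.21 and 7.61. For Extl3, a glycosyltransferase of heparan sulphate synthesis, the values were 7.85, 5.99 and 8.08.

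Below both other arrays by 2-fold there were only 2 genes, with the same symbol patterns left out. Pde7b, a phosphodiesterase that degrades cyclic AMP, had log2 values of 8.17 (PBS), 10.19 (intralipid) and 6.87 (ANGPTL4), 9.98-fold lower than with intralipid. Zdhhc14, a palmitoyltransferase, had 7.60, 8.52 and 6.53, 3.97-fold lower. In the other genes with the largest downward differences, the PBS and ANGPTL4 arrays were mostly close. The difference from PBS and the difference from intralipid share the ANGPTL4 array, so the values are only set side by side.

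**Figure D2:**
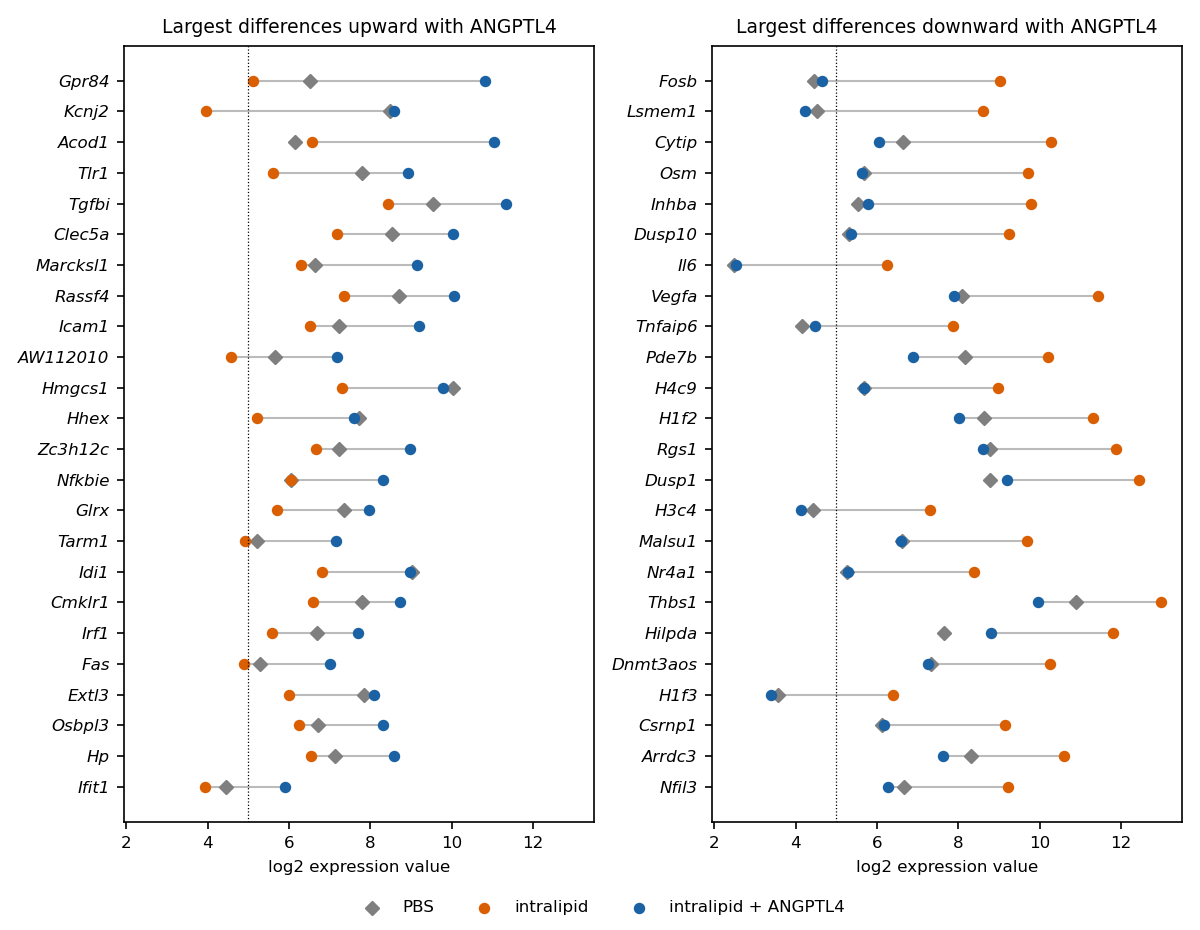
Log2 expression values (x axis) on the 3 arrays for the 24 genes with the largest differences in each direction. Symbols of uncharacterised, non-coding or receptor-repertoire patterns were left out. PBS is shown as grey diamonds, intralipid in orange and intralipid plus ANGPTL4 in blue. The dotted line at a log2 value of 5 marks about where the floor lies, and the grey diamonds sit near the blue points for most genes on the right, such as Osm and Dusp10, but left of the blue points for Gpr84, Acod1 and Tgfbi.

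Toll-like receptors recognise microbial lipids and nucleic acids and pass the signal through adaptors such as MyD88 to NF-kB. Of 22 genes of this list past the floor (24 measured), 16 had a higher value with ANGPTL4 and 3 a lower one, and 8 were 2-fold higher and 0 2-fold lower, against 2.54% and 2.31% of all genes. Their median difference was 0.69, beside 0.00 for all genes. Tlr1 had a log2 value of 7.80 (PBS), 5.61 (intralipid) and 8.93 (ANGPTL4) (9.94-fold higher). Tlr2, with which Tlr1 and Tlr6 form receptors for lipopeptides, had 8.64, 8.93 and 10.81 (3.68-fold higher). Both receptors were highest on the ANGPTL4 array, but only Tlr1 was lower with intralipid than with PBS. Tlr6 was 2.54-fold higher, and the receptors for single-stranded RNA, Tlr7 and Tlr8, were 2.42-fold and 2.17-fold higher. The shared adaptor Myd88 had log2 values of 8.63, 7.85 and 9.22 (2.58-fold higher), and Tirap, which brings it to the membrane receptors, was 2.52-fold higher. Irak3, an inhibitor of the pathway, was 2.0-fold higher, at 8.41, 8.14 and 9.14.

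NF-kB is held in the cytosol by IkB proteins, which are themselves among its targets. Of 22 members past the floor, 18 were higher with ANGPTL4 and 3 lower, and 8 were 2-fold higher and 0 lower (median 0.50). Nfkbie, which encodes IkB epsilon, had a log2 value of 6.05 (PBS), 6.05 (intralipid) and 8.32 (ANGPTL4), a 4.81-fold difference in which only the ANGPTL4 array stood out. Nfkbia, which encodes IkB alpha, had 8.26, 8.93 and 10.18 (2.37-fold higher). Tnip3 and Tnip1, ubiquitin-binding inhibitors of NF-kB, were 3.60-fold and 2.18-fold higher. The kinase gene Ikbke was 2.96-fold higher, N4bp1 2.27-fold, the atypical IkB gene Nfkbid 2.13-fold and the subunit gene Nfkb2 2.02-fold.

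Inflammatory ligands did not all follow. Tnf, the first cytokine of many macrophage responses, had log2 values of 7.53 (PBS), 8.61 (intralipid) and 10.52 (ANGPTL4) (3.77-fold higher than with intralipid). Its receptor gene Tnfrsf1b was 2.22-fold higher, and Fas, a death receptor of the same superfamily, 4.33-fold (4.06-fold against the floor). Tnfrsf12a, the receptor for TWEAK, was 2.59-fold lower. Over the TNF superfamily, 12 of 19 members past the floor were higher and 5 lower, with 3 and 1 of them 2-fold apart.

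Cytokine genes of the interleukin-6 family were lower. Il6 had log2 values of 2.48 (PBS), 6.24 (intralipid) and 2.54 (ANGPTL4) (13.1-fold lower, or 2.38-fold against the floor). Osm, which encodes oncostatin M, had 5.67, 9.71 and 5.62 (17.1-fold lower). Lif, at 3.38, 5.08 and 3.74, barely passed the floor with intralipid (1.07-fold against it). For all of them the intralipid array alone was high. Il33, an alarmin, was 2.86-fold lower (1.85-fold against the floor), and Csf1, the growth factor on which macrophages depend, was 2.39-fold higher, at 6.52, 5.44 and 6.70. Of 25 members of the list past the floor, 8 were higher and 13 lower.

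Genes of the inflammasome and interleukin-1 list differed in both directions, with 9 of 18 members higher and 8 lower. Il1a had a log2 value of 6.73 (PBS), 9.61 (intralipid) and 7.48 (ANGPTL4) (4.36-fold lower). Il1b, which encodes the other main ligand, had 4.11, 4.38 and 5.21 and was not 2-fold apart. Casp1, the protease that activates interleukin-1 beta, had 8.60, 7.69 and 9.05 (2.57-fold higher), and Pycard, its adaptor, was 2.37-fold higher. Casp4, the sensor of cytosolic lipopolysaccharide, was 2.09-fold higher, and Mefv, which encodes pyrin, 3.28-fold (2.59-fold against the floor). The sensor gene Nlrp3 had 5.19, 7.46 and 6.88, 1.49-fold lower. Il1b and Nlrp3 are named here after their values were seen.

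Chemokine ligands differed in both directions, with 8 of 16 members higher and 7 lower. Cxcl2, which attracts neutrophils, had log2 values of 4.70 (PBS), 10.71 (intralipid) and 8.29 (ANGPTL4), 5.35-fold lower than with intralipid and still 12.1-fold above PBS. Cxcl1 had 6.27, 9.01 and 7.16 (3.61-fold lower). Cxcl3, their neighbour on the chromosome, had 4.27, 4.27 and 5.43, in the opposite direction (2.22-fold higher, or 1.36-fold against the floor). These paralogs share sequence, and a probe set may read more than its own transcript, which was not tested. Ccl5, which attracts T cells, was 2.50-fold higher. Among chemoattractant receptors, Ccr1 was 4.65-fold, Ccrl2 2.90-fold and Cxcr1 2.34-fold lower. In the other direction, the chemerin receptor Cmklr1 had log2 values of 7.81, 6.58 and 8.73 (4.43-fold higher), the fractalkine receptor Cx3cr1 was 3.79-fold (3.75-fold against the floor) and the UDP receptor P2ry6 2.19-fold higher. Ptgs2, the inducible cyclooxygenase of prostaglandin synthesis, had 5.72, 9.46 and 7.09 (5.17-fold lower).

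C-type lectin receptors bind glycans and glycolipids on the myeloid surface. Of 14 lectins past the floor (23 measured), 10 were higher and 3 lower, with 5 and 0 of them 2-fold apart. Their median was 0.43, and it ranged from 0.00 to 0.70 under the alternative settings given below. Clec5a had log2 values of 8.52 (PBS), 7.17 (intralipid) and 10.02 (ANGPTL4) (7.21-fold higher). Clec4e encodes Mincle, a receptor for mycobacterial glycolipid, and had 8.29, 10.09 and 11.63 (2.91-fold higher). It thus stood higher with intralipid than with PBS and higher again with ANGPTL4. Clec4a1, Clec4a2 and Clec12a were 2.72-fold, 2.24-fold and 2.19-fold higher. Of 24 Fc and paired receptors, 15 were higher and 7 lower, with 4 and 1 of them 2-fold apart (median 0.18). Among them, the inhibitory Siglece and the activating Treml4 were 3.17-fold and 3.16-fold higher, both from below the floor (1.97-fold and 1.93-fold against it), and the inhibitory Pilra was 2.36-fold higher. Trem1, an amplifier of Toll-like receptor responses that lies beside Treml4 in gene order, was 2.41-fold lower (1.56-fold against the floor). Of 17 scavenger receptors, 9 were higher and 4 lower, and only Msr1 was 2-fold apart.

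Interferon response genes had a median difference of 0.53. Of 30 members past the floor (36 measured), 24 were higher, 3 lower and 3 identical, and 7 were 2-fold higher and 0 2-fold lower. Irf1, a transcription factor induced by interferons and by NF-kB, had log2 values of 6.69 (PBS), 5.58 (intralipid) and 7.69 (ANGPTL4) (4.34-fold higher). Its other probe set lay below the floor, at 4.27 on all 3 arrays. The antiviral Ifit1 had 4.46, 3.94 and 5.90 (3.91-fold, or 1.89-fold against the floor), and so it lay near background on each array. The RNA sensors Ifih1 and Ddx58 were 2.39-fold and 2.10-fold higher, the ADP-ribosyltransferase genes Parp9 and Parp14 2.36-fold and 2.15-fold, and Rtp4 2.55-fold (1.92-fold against the floor). All 3 interferon-gamma-inducible GTPases past the floor were higher without reaching 2-fold, led by Irgm1 at 1.81-fold. Of the kinases of cytokine receptors, Jak2 was 2.37-fold higher.

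**Figure D3:**
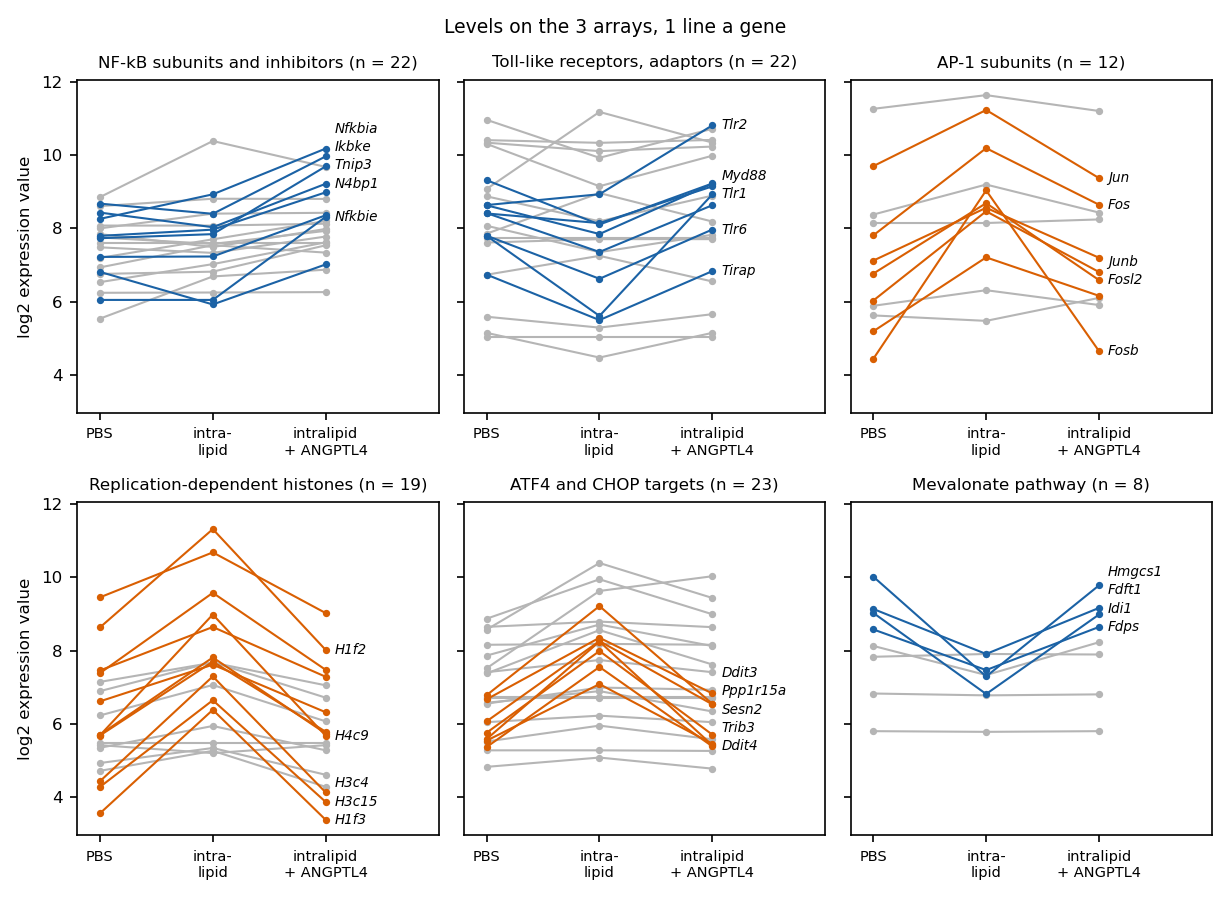
Log2 expression values (y axis) on the PBS, intralipid and ANGPTL4 arrays (x axis), 1 line per gene past the floor in 6 lists, blue where the ANGPTL4 array is 2-fold or more above the intralipid array, orange where it is 2-fold or more below and grey otherwise, with up to 5 of the coloured lines named. In the AP-1, histone and ATF4 panels the coloured lines peak on the intralipid array, in the mevalonate panel they dip there, and in the NF-kB panel Nfkbie, Tnip3 and Nfkbia are highest on the ANGPTL4 array.

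Immediate early genes are transcribed within minutes of a stimulus, without new protein synthesis, and their transcripts decay fast. AP-1 is a dimer of their Fos and Jun products. Of 12 AP-1 subunit genes past the floor, 10 were lower with ANGPTL4 and 2 higher, with 7 and 0 of them 2-fold apart (median -1.20). Fosb had a log2 value of 4.44 (PBS), 9.03 (intralipid) and 4.65 (ANGPTL4) (20.8-fold lower, or 16.5-fold against the floor). Fos had 7.81, 10.19 and 8.64 (2.91-fold lower), and Jun 9.69, 11.23 and 9.37 (3.62-fold lower). Fosl2 was 4.28-fold, Junb 3.15-fold, Mafk 2.57-fold and Maff 2.07-fold lower.

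Other early transcription factors were lower in the same way. Of 20 early growth response, NR4A, IER and KLF genes, 16 were lower and 4 higher, with 11 and 0 of them 2-fold apart (median -1.19). Nr4a1, an orphan nuclear receptor, had log2 values of 5.26 (PBS), 8.37 (intralipid) and 5.29 (ANGPTL4) (8.45-fold lower). Csrnp1 was 7.88-fold, Ier3 7.42-fold, Klf4 3.02-fold and Myc 2.70-fold lower. Nr4a2 and Nr4a3 reached only 1.21-fold and 1.22-fold against the floor.

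Genes for the phosphatases that switch off MAP kinases were mostly lower as well. Dusp1 had a log2 value of 8.78 (PBS), 12.44 (intralipid) and 9.20 (ANGPTL4) (9.42-fold lower). Dusp10, which acts on the stress kinases JNK and p38, had 5.32, 9.23 and 5.36 (14.6-fold lower). Dusp5, which acts on ERK in the nucleus, had 6.17, 8.54 and 6.17 (5.18-fold lower), and Dusp8 and Dusp2 were 3.18-fold and 2.38-fold lower. Of 12 phosphatases, 8 were lower and 4 higher, none of the latter by 2-fold. Of 11 Sprouty, Spred and other MAP kinase feedback genes past the floor, 6 were lower, 3 higher and 2 identical (median -0.15). The 4 of them 2-fold apart were all lower. Errfi1, an inhibitor of the EGF receptor, was 5.11-fold lower. The stress sensors Gadd45g, Gadd45a and Gadd45b were 3.80-fold, 3.14-fold and 2.24-fold lower.

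Genes for proteins that destroy short-lived transcripts, listed together with early kinases, were mostly lower. Of 16 such genes and early kinases, 13 were lower, 2 higher and 1 identical, with 7 lower and 1 higher by 2-fold. Zfp36, which encodes tristetraprolin, a protein that binds the AU-rich elements of cytokine transcripts, had log2 values of 8.40 (PBS), 9.86 (intralipid) and 8.42 (ANGPTL4) (2.71-fold lower). Btg2, which speeds deadenylation, was 3.79-fold lower, and the kinases Pim1 and Plk2 were 4.06-fold and 2.60-fold lower. Zc3h12c, a relative of the endonuclease regnase-1, was the exception, with 7.23, 6.67 and 8.97 (4.93-fold higher).

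Signalling through cyclic AMP showed differences in both directions, with 7 of 24 members higher, 11 lower and 6 identical. Besides Pde7b, the CREB-dependent kinase gene Sik1 was 4.67-fold lower, Pde3b 2.88-fold and Crem 2.45-fold. Ptger4, a prostaglandin E2 receptor that raises cyclic AMP, had log2 values of 7.12 (PBS), 6.12 (intralipid) and 7.79 (ANGPTL4) (3.19-fold higher), and Prkar2b, a regulatory subunit of protein kinase A, was 2.91-fold higher. Rgs1, which ends signalling by G protein-coupled receptors, had 8.78, 11.87 and 8.60 (9.64-fold lower). It was the only one of 7 RGS genes 2-fold apart.

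Ion channels differed in 1 direction only. Of 16 potassium and calcium-related channels past the floor, 12 were higher with ANGPTL4, 0 lower and 4 identical. Kcnn4, the calcium-activated potassium channel of macrophages, had log2 values of 9.25 (PBS), 8.15 (intralipid) and 10.00 (ANGPTL4) (3.60-fold higher). Kcnk6, a background potassium channel, was 2.27-fold higher, and Hvcn1, the proton channel that supports the oxidative burst, 2.25-fold. The median of the list was 0.15.

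The core clock list had 15 genes past the floor, of which 11 were lower, 0 higher and 4 identical. Per1 had log2 values of 6.13 (PBS), 7.88 (intralipid) and 5.92 (ANGPTL4) (3.91-fold lower). Nfil3, a repressor of clock output, was 7.73-fold lower, Bhlhe40 2.40-fold and Ciart 2.21-fold (1.13-fold against the floor). The first 3 also respond to acute signals, and 1 time point cannot show a phase. Of 13 genes known to be induced by glucocorticoids, 9 were lower and 5 of them by 2-fold, and these 5 (Dusp1, Errfi1, Ddit4, Per1 and Tgm2) answer to other stimuli too.

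ATF4 and CHOP are the transcription factors of the integrated stress response, which cells start when amino acids are short or proteins misfold. Of 23 targets past the floor, 20 were lower with ANGPTL4, 1 higher and 2 identical, with 7 and 0 of them 2-fold apart (median -0.55). Ddit3, which encodes CHOP itself, had a log2 value of 6.78 (PBS), 9.21 (intralipid) and 6.55 (ANGPTL4) (6.34-fold lower). Trib3, a pseudokinase that restrains this response, had 5.59, 8.25 and 5.42 (7.10-fold lower). Sesn2 and Ddit4, which restrain mTORC1, were 4.86-fold and 4.48-fold lower, Ppp1r15a, which restores translation, 3.31-fold, Chac1, which degrades glutathione, 3.09-fold and the mitochondrial folate enzyme Mthfd2 2.87-fold.

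Genes downstream of this response that feed protein synthesis differed less. Of 18 cytosolic aminoacyl-tRNA synthetases, 5 were higher, 7 lower and 6 identical, none by 2-fold. Cars was farthest apart, by 1.55-fold. The amino acid transporters Slc38a2, Slc7a1 and Slc7a5 were 2.20-fold, 2.16-fold and 2.03-fold lower. Slc7a2, the arginine transporter induced in activated macrophages, had log2 values of 8.06 (PBS), 8.06 (intralipid) and 9.32 (ANGPTL4) (2.38-fold higher).

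The endoplasmic reticulum branch of the stress response was nearly level. Of 27 chaperone and folding genes past the floor, 11 were higher, 5 lower and 11 identical, and the median was 0.00. Ern1, which encodes the sensor IRE1 alpha, was the only one 2-fold apart, at 7.48, 10.07 and 7.48 (6.02-fold lower). Among 15 heat shock genes only Hspa1a, the inducible HSP70, was 2-fold apart, at 5.99, 8.35 and 5.73 (6.18-fold lower). Of NRF2 and glutathione genes, 16 of 22 were higher and 2 lower (median 0.25), among them Gclm, a subunit of the glutathione-synthesising ligase, at 2.41-fold and the haem oxygenase gene Hmox1 at 2.02-fold. Sesn1 had 8.66, 6.34 and 7.94 (3.03-fold higher), opposite to Sesn2. Among FoxO targets, the insulin receptor substrate gene Irs2 and the ubiquitin ligase gene Fbxo32 were 5.63-fold and 3.46-fold lower.

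Replication-dependent histones package newly made DNA, and their genes were lower with ANGPTL4. Of 28 measured genes of this family, 19 passed the floor, 17 of them lower, 1 higher and 1 identical, and 11 were 2-fold lower (median -1.36). The family was gathered by its symbols after the values had been seen. H1f2, a linker histone, had a log2 value of 8.63 (PBS), 11.31 (intralipid) and 8.02 (ANGPTL4) (9.81-fold lower). H4c9 had 5.69, 8.98 and 5.68 (9.88-fold lower), and H4c4 7.39, 9.58 and 7.48 (4.29-fold lower). H3c4 and H1f3 were 8.96-fold and 7.99-fold lower, or 4.95-fold and 2.63-fold against the floor. In each of these genes the intralipid array alone was high. Such histone transcripts normally end in a stem-loop without a poly(A) tail and are made in S phase, and the labelling assay here read whole transcripts. Near-identical copies can share probes, so single members are uncertain. Of 28 genes of DNA replication and the cell cycle, 16 were higher, 2 lower and 10 identical, beside 4658 higher of all 10004 genes. Their median was 0.10 and none was 2-fold apart.

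Cholesterol synthesis is switched on by SREBP2 when sterols in the endoplasmic reticulum run low. In the mevalonate pathway, which builds the isoprenoid precursors, 7 of 8 genes past the floor were higher with ANGPTL4 and 4 of them 2-fold (median 1.03). Hmgcs1, which makes HMG-CoA, had a log2 value of 10.02 (PBS), 7.29 (intralipid) and 9.78 (ANGPTL4) (5.60-fold higher). Idi1, the isopentenyl isomerase, had 9.03, 6.82 and 8.98 (4.49-fold higher), and Fdft1 and Fdps, which join the isoprene units, were 2.39-fold and 2.26-fold higher. In the steps after squalene, 9 of 10 genes were higher and 1 identical, with 3 of them 2-fold (median 0.78). Cyp51, the sterol demethylase, had 8.16, 6.27 and 8.22 (3.87-fold higher), and Hsd17b7 and Msmo1 were 2.20-fold and 2.10-fold higher. The sterol carrier gene Stard4 was 3.80-fold higher and Insig1, which retains the SREBP complex when sterols abound, 2.02-fold. For all of these the intralipid array was the low one and the ANGPTL4 array lay near PBS. Members of the pathway without a value were not analysed here.

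Sterol efflux and fatty acid synthesis showed smaller differences. Abca1, the LXR-driven cholesterol exporter, had log2 values of 9.19 (PBS), 10.67 (intralipid) and 9.30 (ANGPTL4) (2.57-fold lower), and it was the only one of 13 LXR targets 2-fold apart. Of 18 genes of fatty acid synthesis, 12 were higher, 2 lower and 4 identical, none by 2-fold (median 0.35). The nearest to it was Mid1ip1, an activator of acetyl-CoA carboxylase, at 1.95-fold.

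In triglyceride storage, 8 of 19 genes past the floor were higher and 8 lower, beside 4658 higher and 2313 lower of all 10004 genes. The 3 genes of this list 2-fold apart were all lower. Hilpda, which inhibits adipose triglyceride lipase on lipid droplets, had a log2 value of 7.65 (PBS), 11.80 (intralipid) and 8.79 (ANGPTL4) (8.05-fold lower, and 2.21-fold above PBS). Gpat3 and Dgat1, which catalyse the first and the last step of triglyceride synthesis, were 3.44-fold and 3.21-fold lower, both close to their PBS values. The droplet coat gene Plin2 was 1.24-fold lower, at 12.25, 12.98 and 12.66.

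Genes of fatty acid uptake and oxidation mostly differed by less. Cd36, the fatty acid translocase, had log2 values of 12.56, 12.65 and 12.63. Cpt1a, which admits fatty acids to mitochondria, had 9.66, 9.76 and 10.28 (1.44-fold higher), and Pdk4 remained below the floor throughout. Of 23 PPAR targets and oxidation genes, 12 were higher and 8 lower. The one 2-fold apart was Ppargc1a, the coactivator of mitochondrial biogenesis, at 4.05, 7.06 and 4.12 (7.67-fold lower, or 4.21-fold against the floor). The cytosolic carrier gene Fabp3 was 2.22-fold and Msr1 2.30-fold higher. Of phospholipid remodelling genes, 14 of 19 were higher and 2 lower (median 0.25). Lpcat1, which reacylates lysophosphatidylcholine, had 7.86, 5.77 and 7.44 (3.16-fold higher), Lpcat2, which also makes platelet-activating factor, was 3.00-fold higher, and the choline kinase gene Chka 2.21-fold lower.

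**Figure D4:**
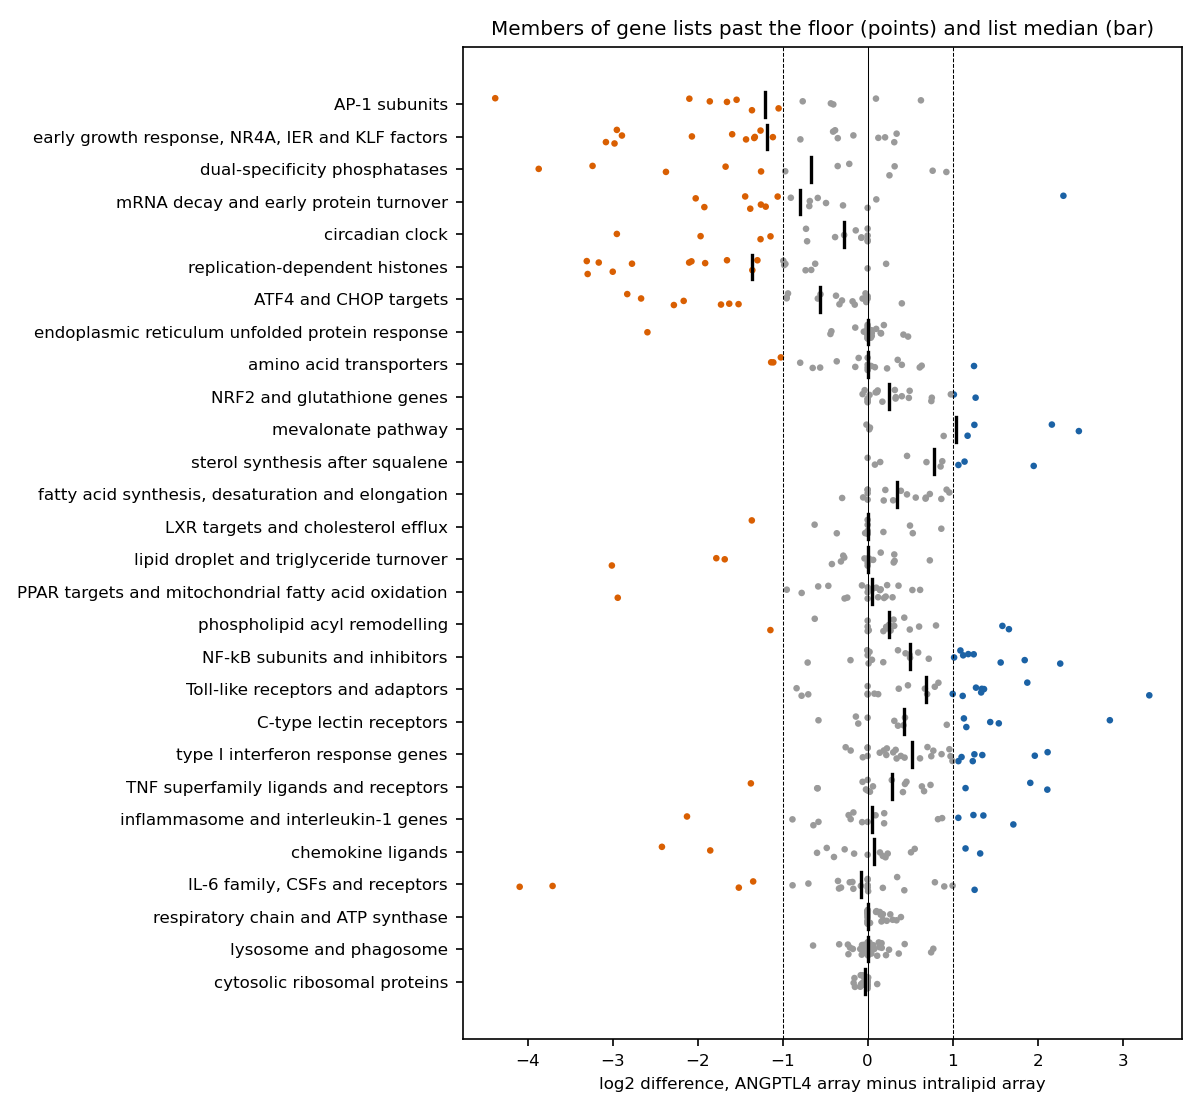
Log2 differences of the ANGPTL4 array minus the intralipid array (x axis) for the members past the floor of 28 of the 57 gene lists (y axis), 1 point per gene, with the list median as a bar and dashed lines at 2-fold. The bars of the AP-1, early growth response and histone lists lie past the dashed line on the left, that of the mevalonate pathway lies just past it on the right, and the respiratory chain and ribosomal protein lists cluster at 0.

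Growth factor and matrix genes differed in both directions. Vegfa, the main angiogenic factor, had a log2 value of 8.09 (PBS), 11.43 (intralipid) and 7.89 (ANGPTL4) (11.6-fold lower). Inhba, a subunit of activin A, had 5.53, 9.77 and 5.77 (16-fold lower), and Smad7, an inhibitor of TGF-beta signalling, was 2.24-fold lower. The receptors Tgfbr1 and Acvr1b were 2.15-fold and 2.06-fold higher. Thbs1, which encodes thrombospondin 1, a matrix protein that activates TGF-beta, had 10.88, 12.97 and 9.95 (8.12-fold lower). The hyaluronan-binding Tnfaip6 was 10.4-fold lower (7.30-fold against the floor), Mmp19 5.86-fold and Adamts1 2.50-fold (2.18-fold against the floor). Adam17, the protease that sheds TNF, and Mmp14 were 2.97-fold and 2.94-fold higher. Hbegf was 2.65-fold lower and Pdgfb 2.85-fold higher, as was Nrp2, a co-receptor of semaphorins and VEGF, by 3.32-fold.

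Adhesion and cell identity genes differed in both directions. Icam1, the endothelial and leukocyte adhesion molecule, had log2 values of 7.22, 6.53 and 9.19 (6.32-fold higher), and Itgal, the alpha chain of its receptor LFA-1, was 2.64-fold higher. Cyth1, which encodes cytohesin 1, and Cytip, which encodes a protein that binds it, act on LFA-1. They were 2.58-fold and 18.9-fold lower, with Cytip at 6.63, 10.29 and 6.05. Of 30 members of the macrophage lineage factor list, 15 were higher and 13 lower. Mitf, Elk3 and Tifab were 2.21-fold, 2.12-fold and 2.83-fold higher, and Ets2 3.31-fold lower. The phosphatase genes Ptpn6, which encodes SHP-1, and Ptprj were 3.91-fold and 3.31-fold higher. Of 26 antigen presentation and co-stimulation genes past the floor, 15 were higher, 5 lower and 6 identical (median 0.03). Those 2-fold apart were Cd83, 4.32-fold lower, Cd274, which encodes PD-L1, 2.01-fold lower, and Slamf9, 2.05-fold higher.

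Large housekeeping groups stayed narrow. All 31 respiratory chain genes differed by -0.00 to 0.39 on the log2 scale, and the 22 ribosomal protein genes by -0.17 to 0.11. The 35 lysosomal genes ranged from -0.64 to 0.77. No member of these groups, of the 22 BCL2 family and survival genes or of the 13 complement genes was 2-fold apart. The glycolysis and hypoxia list had 12 of 28 higher and 11 lower. Its only genes 2-fold apart were Pfkfb3, which speeds glycolysis, at 2.77-fold and Ndrg1 at 2.62-fold lower. Over all 57 lists, 1216 genes had a value, 1024 passed the floor, 86 were 2-fold higher and 102 2-fold lower. A further 168 higher and 129 lower genes were in no list.

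Promoter sequences are shown for genes of contrasting groups, so that the letters behind the motif counts can be seen. RefSeq start sites on GRCm38.p6 were matched by symbol for 8109 of the genes past the floor. The 250 bases before each start were searched on both strands. The patterns were the sterol element SRE (CACCCCAC), the cyclic AMP element CRE (TGACGTCA), NF-kB (GGNNNTTCC), the interferon element ISRE (GAAANNGAA) and AP-1 (TGANTCA). The ATF4 element CARE (TGATGNAA), the TATA box letters TATAAA and CCAAT were searched too. TATAAA counted at any position in the window, so a match marks the letters and not a placed TATA box. The 6 genes below were chosen after the values were seen, because each has a large difference and its window holds a match. Only matches to the motif named for the gene are in capitals. Matches to other searched motifs stay in lower case, such as an SRE pattern in the Dusp1 window and an AP-1 pattern in the Nfkbie window. Hmgcs1 is shown for the SRE (136 bases before the start, chr13:119690101-119690350, plus strand). Icam1 is shown for NF-kB (153 and 84 bases before, chr9:21015690-21015939, plus strand), as is Nfkbie (105 and 76 bases before, chr17:45555450-45555699, plus strand). Ifit1 is shown for the ISRE (109, 103 and 84 bases before, of which the first pair overlap, chr19:34640639-34640888, plus strand). Dusp1 is shown for the CRE (143 bases before, chr17:26508473-26508722, minus strand). Inhba is shown for TATAAA (91 bases before, chr13:16011601-16011850, plus strand). Each is written 5′ to 3′ on the gene's strand.
Hmgcs1: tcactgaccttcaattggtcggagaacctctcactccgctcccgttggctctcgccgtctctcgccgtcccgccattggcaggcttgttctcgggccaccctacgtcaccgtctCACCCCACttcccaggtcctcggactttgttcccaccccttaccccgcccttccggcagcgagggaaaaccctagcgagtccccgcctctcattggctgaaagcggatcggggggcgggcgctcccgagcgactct
Icam1: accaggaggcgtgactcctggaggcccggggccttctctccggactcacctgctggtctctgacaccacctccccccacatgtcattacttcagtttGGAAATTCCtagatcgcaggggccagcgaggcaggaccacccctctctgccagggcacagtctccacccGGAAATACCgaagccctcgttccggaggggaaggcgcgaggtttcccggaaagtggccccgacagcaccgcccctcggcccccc
Nfkbie: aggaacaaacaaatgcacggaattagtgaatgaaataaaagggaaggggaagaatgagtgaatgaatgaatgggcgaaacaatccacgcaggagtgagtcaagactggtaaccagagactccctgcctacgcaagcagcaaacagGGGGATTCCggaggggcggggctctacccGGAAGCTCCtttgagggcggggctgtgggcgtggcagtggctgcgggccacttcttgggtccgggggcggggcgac
Ifit1: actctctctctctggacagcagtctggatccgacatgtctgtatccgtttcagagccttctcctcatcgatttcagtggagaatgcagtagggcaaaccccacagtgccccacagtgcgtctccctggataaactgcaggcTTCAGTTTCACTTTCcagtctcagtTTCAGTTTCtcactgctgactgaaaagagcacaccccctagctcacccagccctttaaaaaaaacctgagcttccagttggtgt
Dusp1: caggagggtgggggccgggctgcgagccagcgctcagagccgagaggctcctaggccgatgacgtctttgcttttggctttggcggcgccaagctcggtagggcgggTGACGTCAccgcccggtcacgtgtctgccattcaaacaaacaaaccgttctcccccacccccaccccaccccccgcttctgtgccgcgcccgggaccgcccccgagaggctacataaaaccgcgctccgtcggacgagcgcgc
Inhba: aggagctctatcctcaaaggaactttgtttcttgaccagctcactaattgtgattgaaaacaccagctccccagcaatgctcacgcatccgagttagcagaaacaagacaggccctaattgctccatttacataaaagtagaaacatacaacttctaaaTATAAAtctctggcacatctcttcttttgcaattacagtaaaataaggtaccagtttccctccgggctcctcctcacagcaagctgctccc

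The first 4 of these genes were higher with ANGPTL4 and the last 2 lower. Among all 8109 genes, 7.73% had TATAAA in the window. Among the 213 higher genes with a promoter the share was 11.7%, and among the 176 lower genes 18.2%, which is 32 genes. Replication-dependent histones are among the lower genes. Of 16 such histone genes with a promoter, 2-fold lower or not, 9 held TATAAA. The share of the lower genes without histones was not computed. The interferon element was found in 7.29% of all genes, 11.7% of the higher and 7.95% of the lower. NF-kB matches are common by their short pattern, in 21.2%, 23.9% and 17.6% of the genes in the same order. The CRE was in 3.12%, 2.35% and 5.68%, and AP-1 in 5.56%, 5.16% and 9.09%. The sterol element stood in 3.39%, 3.76% and 5.68%. The CARE was in 2.44%, 4.23% and 2.27%, so its share was no higher among the lower genes. Shares for CCAAT (39.5%, 41.3% and 42.0%) lay close together.

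Within the lists, 11 of 19 NF-kB subunit and inhibitor genes with a promoter held the NF-kB pattern. The interferon element was in 10 of 25 interferon response genes, and TATAAA in 9 of 16 histone genes. The CARE was in 6 of 22 ATF4 and CHOP targets, against 2.44% of all genes. Only 1 of 6 mevalonate genes, Hmgcs1, held this SRE pattern, and 0 of 9 genes of the later sterol steps did. A match describes letters in a window and is no measure of binding. Genes differ in the number of start sites searched, since any window of a gene counted.

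**Figure D5:**
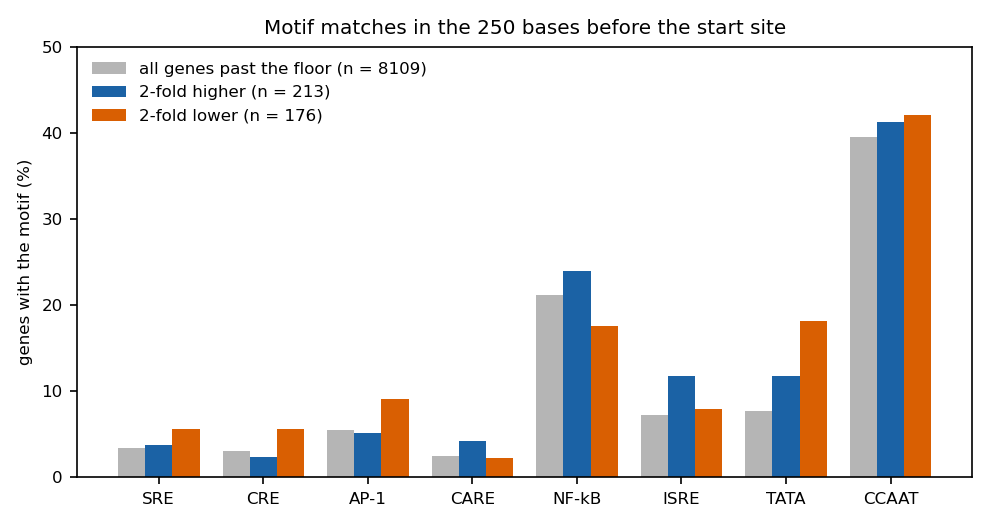
Share of genes (y axis, percent) with a match to each of 8 motifs (x axis) in the 250 bases before a start site, for all 8109 genes past the floor with a promoter (grey), the 213 genes 2-fold higher (blue) and the 176 genes 2-fold lower with ANGPTL4 (orange). TATAAA (labelled TATA) shows the widest gap between lower genes and all genes, at 18.2% against 7.73%. The lower genes include replication-dependent histones, in which this match is common.

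Called genes sometimes lay side by side. In RefSeq gene order, taking only genes past the floor, 39 neighbouring pairs had both members called. Of these, 27 were in the same direction and 12 in opposite directions. Over all genes past the floor, 2.54% were called higher and 2.31% lower. The number of pairs that these shares alone would give was not computed. Neighbouring histone genes, such as H3c4 and H4c4, were among the pairs lower together, and near-identical copies can share probes. Tlr1 and Tlr6, Tlr8 and Tlr7, and Casp1 and Casp4 were higher together, and Osm and Lif, and Cxcl1 and Cxcl2 lower together. Vasp, an actin regulator named here only as the neighbour of Fosb, was 2.19-fold higher.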

How the data were processed

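RNA was labelled with biotin (100 ng, integrity number above 8) and hybridised to 3 Affymetrix whole-transcript arrays, 1 per group. The authors deposited 1 log2 value per probe set and array, made with RMA per the submitters' processing notes. RMA corrects background, makes the distributions of the arrays alike and summarises probes. The sources used here give neither its version nor the chip definition. Values were used as deposited, and the difference was that of the log2 values. Gene names came from the platform annotation. It gave 1 symbol to 21789 probe sets, several to 1621 and none to 12146, and the last groups were left out.

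The 2-fold threshold is a log2 difference of 1. The text draws on the 30 genes farthest apart in each direction and on 12 in each direction among those past the 75th percentile. It also draws on up to 12 in each direction whose ANGPTL4 array lay 2-fold beyond both other arrays (12 above, 2 below). From these picks, symbols of uncharacterised, non-coding or receptor-repertoire patterns were left out. Up to 8 members 2-fold apart per list, or else the extreme members, and 7 genes whatever their values were added. The members and lists were chosen with earlier results of these data known, and the histone list after its values were seen. The number of arrays limits the precision.

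Python 3.11.15 with pandas 2.3.3 and numpy 2.4.6 was used, with limma 3.58.1 in R 4.3.3 for the alternative scalings. The counting was tested on simulated data. The alternatives were folds of 1.5 and 3, no floor, a floor at the 75th percentile, centred arrays, quantile normalization, cyclic loess, the mean over probe sets and the mean of a list.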

Additional observations from a re-analysis of the deposited data

How the results depend on the processing

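The counts of genes moved most with the fold threshold. At 1.5-fold, 830 genes were higher and 498 lower. At 3-fold, 58 were higher and 102 lower, so which direction had more genes turned with the threshold. Without the floor the counts were 262 and 236, and with the floor at the 75th percentile 188 and 194. Quantile normalization gave 228 and 248, cyclic loess 247 and 236, and the mean over probe sets 250 and 230. The higher share of calls was 52.4% as deposited and 47.9% after quantile normalization, and no scaling shifted the median of all genes by more than -0.02. Of 904 values of 226 named genes under the alternatives, 899 moved by less than the robust SD of 0.23, 5 by more and 0 reversed. Of 398 list medians, 367 moved by less and 31 by more, mostly with the mean of the members or the higher floor. The signs of the small RGS, PPAR, chemokine ligand, inflammasome, metabolite receptor, lineage factor and BCL2 medians turned under at least 1 alternative. The metabolite receptor median was -0.29 and its mean 0.45, with Gpr84 among 9 members. No paired analysis was possible because each group has 1 array of pooled RNA. For the same reason leaving out a replicate could not be tried.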

Other observations

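Probe sets outside the comparison also differed between the arrays. Of 1621 probe sets with several symbols, 770 passed the floor, with 6 at least 2-fold higher with ANGPTL4 and 47 lower, and log2 differences from -2.66 to 1.57. Of 12146 probe sets with no symbol, 4151 passed the floor, with 195 higher and 161 lower and differences from -4.18 to 3.98. They name no single gene here and entered no count of the report.

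Other named genes with large differences belong to none of the gene lists. Lsmem1, a membrane protein of unknown role here, had log2 values of 4.52 (PBS), 8.60 (intralipid) and 4.24 (ANGPTL4) (20.6-fold lower, or 12.2-fold against the floor). Arrdc3, an arrestin-like adaptor, was 7.87-fold lower, Ifrd1 6.86-fold and Odc1, the rate-limiting enzyme of polyamine synthesis, 5.92-fold, with log2 values of Odc1 of 8.68, 11.35 and 8.78. Malsu1 was 8.55-fold lower, Tcim 7.68-fold (6.68-fold against the floor) and Fam71a 6.91-fold (6.65-fold against the floor). Dnmt3aos, annotated antisense to a DNA methyltransferase gene, was 8.04-fold lower. Among the higher genes, Rassf4 had 8.71, 7.34 and 10.07 (6.61-fold higher), the glutaredoxin gene Glrx 7.34, 5.71 and 7.96 (4.76-fold), the sterol-binding protein gene Osbpl3 6.70, 6.24 and 8.30 (4.18-fold) and Hp, which encodes haptoglobin, 7.14, 6.54 and 8.58 (4.11-fold). AW112010 was 6.08-fold higher, or 4.59-fold against the floor.

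Of 32 called genes with several probe sets, 1 had a probe set in the other direction. In Ppp1r12b the chosen probe set had log2 values of 6.78, 6.12 and 7.29. It alone was 2-fold apart, and the differences of the gene's other probe sets lay between -0.0012 and 0.14.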
